A study of Rattus norvegicus with 8 samples.

Results

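The 9 genes described here, the thyroid hormone genes Slco1c1, Dio2, Dio3, Thra, Thrb and Crym and the tanycyte genes Vim, Rax and Gpr50, were measured in hippocampus and hypothalamus of the rat. They were chosen by symbol, and all 9 were listed in both tissues, out of 16514 symbols listed in at least 1. The libraries came from male Sprague Dawley rats, an outbred stock, aged 2 months at the start, which drank 15% fructose and ate an omega-3 diet for 6 weeks. The labels name fructose and docosahexaenoic acid (DHA, an omega-3 fatty acid) as the feed of every sample. There were 4 hippocampus libraries and 4 hypothalamus libraries, so that the tissue was the contrast and no animals without fructose were analysed here. The labels do not say whether the libraries of a tissue came from separate animals, and every SD or SE here measures how libraries varied, which may be technical. Each value is in FPKM, a count of fragments relative to transcript length and to the fragments mapped in the library. Because length is divided out, levels of different genes are set side by side as listed. Such comparisons hold only as far as the loci of the genes were built alike, which was not tested.

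Thyroxine, the main hormone of the thyroid gland, crosses into the brain through carriers and is turned into triiodothyronine, the form that binds the nuclear receptors. In rodents the carrier OATP1C1, the product of Slco1c1, sits in brain capillaries and astrocytes. The selenoenzyme type 2 deiodinase (Dio2) makes triiodothyronine in astrocytes and tanycytes, and type 3 deiodinase (Dio3) inactivates both hormones. Tanycytes are elongated glial cells that line the floor of the third ventricle of the hypothalamus. They contain the intermediate filament vimentin (Vim), need the homeobox factor Rax to form, and in rodents express Gpr50, an orphan receptor related to the melatonin receptors. Crym encodes mu-crystallin, a cytosolic protein that binds triiodothyronine.

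The promoter windows of the 3 tanycyte genes are shown because these genes were all higher in hypothalamus. Each is the 250 bases before the annotated start, from RefSeq on build GRCr8, read 5′ to 3′ along the gene. Vim lies at chr17:81577011-81577260 on the plus strand, Gpr50 at chrX:154413439-154413688 on the plus strand and Rax at chr18:61737445-61737694 on the minus strand. Capitals mark matches, on either strand, to the TATA box TATAAA, the CCAAT box CCAAT, the GC box GGGCGG or the nuclear receptor hexamer AGGTCA.
Vim: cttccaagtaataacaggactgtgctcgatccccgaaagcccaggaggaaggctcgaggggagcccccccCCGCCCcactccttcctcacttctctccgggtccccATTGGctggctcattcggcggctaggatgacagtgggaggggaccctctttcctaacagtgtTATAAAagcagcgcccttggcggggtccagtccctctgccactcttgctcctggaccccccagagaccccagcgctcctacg
Gpr50: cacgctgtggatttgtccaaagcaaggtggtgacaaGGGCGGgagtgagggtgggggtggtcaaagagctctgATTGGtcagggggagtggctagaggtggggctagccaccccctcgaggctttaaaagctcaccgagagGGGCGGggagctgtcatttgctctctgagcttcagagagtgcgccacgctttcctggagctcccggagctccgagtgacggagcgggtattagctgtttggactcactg
Rax: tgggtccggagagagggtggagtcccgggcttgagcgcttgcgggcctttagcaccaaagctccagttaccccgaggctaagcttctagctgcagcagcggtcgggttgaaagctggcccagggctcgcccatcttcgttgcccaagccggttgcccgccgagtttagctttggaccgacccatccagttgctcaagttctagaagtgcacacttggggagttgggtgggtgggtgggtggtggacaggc
The Vim window held 1 match each to the TATA box, starting 82 bases before the start, the CCAAT box and the GC box. The Gpr50 window held 1 CCAAT box and 2 GC boxes. None of the letters searched was found in the Rax window. Over all 33469 windows of this length, 12.9% held a TATA box, 34.0% a CCAAT box, 30.5% a GC box and 14.1% the hexamer. The hexamer was in none of the 8 windows available for 7 of the genes (those of Dio2, Dio3, Gpr50, Rax, Thra, Thrb and Vim).

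The tissues carried the markers of their labels. Of hypothalamic neuron markers, 11 of 11 compared were higher in hypothalamus, with a summed level of 5988 to 10987 FPKM there and 9.45 to 15.3 FPKM in hippocampus. Avp, the vasopressin gene, was higher by 11.69 and Oxt, the oxytocin gene, by 10.76 on the log2 scale. All 11 pallial neuron markers were lower in hypothalamus, among them Slc17a7, a vesicular glutamate transporter gene, at a difference of -8.99, Itpka, an inositol trisphosphate kinase gene, at -6.51 and Camk2a, a kinase gene of excitatory neurons, at -3.88. Of all genes compared, 13.3% were higher and 13.4% lower. Genes were compared when they averaged 1 FPKM over the 8 libraries. Only 3 of 12 hypothalamic markers reached 1 FPKM on average in hippocampus, and 7 of 11 pallial markers in hypothalamus. Counts of markers that entered through 1 tissue alone are thus no support for a pattern. Hippocampus replicates 3 and 4 stood apart for choroid plexus genes, 10 of which were in both tables, with summed levels of 6969.8 and 5198 FPKM against 62.9 and 84.9 FPKM in replicates 1 and 2 and 41.0 to 133 FPKM in hypothalamus. Otx2 of this list was at 0 in all 8 libraries. Hypothalamus replicate 4 was low for the thyrotropin subunit genes Cga and Tshb but not for all pars tuberalis and pituitary markers, since Lhb, the luteinizing hormone subunit gene, was highest there, at 7.55 FPKM, and Pou1f1, at 16.5 FPKM, lay above replicate 3, at 15.0 FPKM. Mostly through Cga, the sum over 9 of these markers was 46.1 FPKM in replicate 4 against 199.9 to 333 FPKM in the other hypothalamus libraries and 0.98 to 2.32 FPKM in hippocampus. Tbx19 and Mtnr1a, also of this list, were lowest of their tissue in hypothalamus replicate 4 as well, at 1.92 and 0.14 FPKM. Results are therefore also given without hippocampus replicates 3 and 4 where this moved them. The number of reads per library is unknown, so that no counting error can be given.

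The tables of the tissues were made apart, each with loci of its own, and tissue and table coincide. Levels were therefore set side by side with no p-value, after each library had been scaled over the symbols that both tables list. A gene was called when its mean difference on the scale of log2(FPKM + 1), hypothalamus minus hippocampus, was at least 1 in size and the ranges of the tissues, 4 libraries each, stayed apart. This scale understates the differences of low genes. Genes that every cell uses could be far apart between the tables: of 12 looked at, 6 differed by at least 1 on this scale. Gapdh was at means of 6.20 FPKM in hippocampus and 582 FPKM in hypothalamus, a difference of 6.34 that exceeds those of all 9 genes. Ppia was at -2.46, and Pgk1, Rps3 and Eef1a1, at -1.37, -1.31 and -1.10, differed by about as much as Dio2, Thra and Thrb. Hprt1, at -1.23, was listed at 0 in all 4 hypothalamus libraries and at a mean of 1.43 FPKM in hippocampus, so that a value of 0 is reported as listed and not as absence. How far the tables themselves set the differences of the 9 genes cannot be told apart from tissue.

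Of the 9 genes, 3 were called higher in hypothalamus (Vim, Rax and Gpr50), 4 were called lower (Crym, Thra, Thrb and Dio2), Slco1c1 was neither, and Dio3 stayed under the filter of a mean of 1 FPKM over the 8 libraries. Of all 10557 genes compared, 13.3% were called higher and 13.4% lower, 26.7% in either direction, and for 53.4% the ranges of the tissues stayed apart whatever the size. Rax and Gpr50 passed the filter through their hypothalamus values alone, so that their calls are no support for a pattern. With values as deposited, without scaling, 1912 genes were higher and 1018 lower, or 65.3% of called genes higher in place of 49.9%, and the median difference of all genes was 0.18 in place of -0.04. Thra, Thrb and Dio2 lay at the limit of 2-fold and were not called with values as deposited or with upper-quartile scaling, while their libraries did not overlap under any setting tried for the summed values. In bulk tissue, fewer cells of a type and less RNA per cell cannot be told apart.

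**Figure D1:**
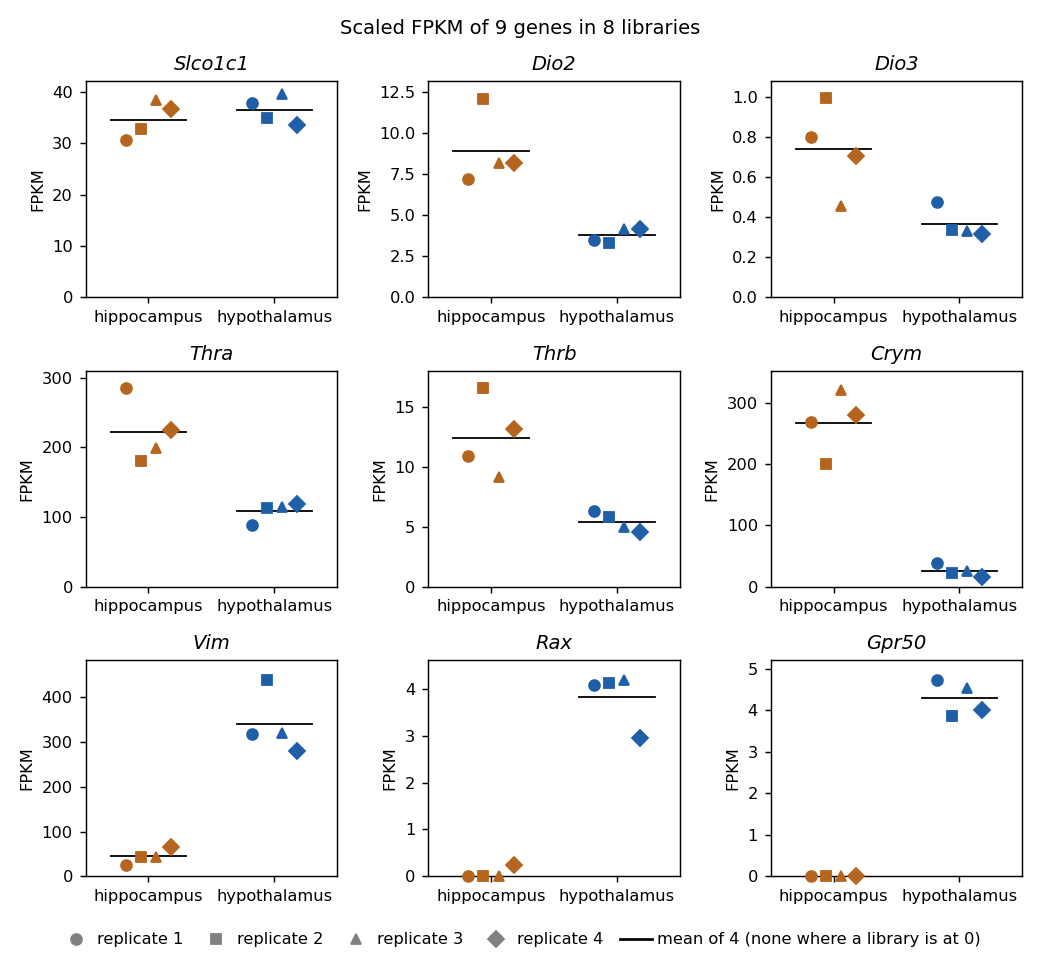
Scaled FPKM of the 9 genes in each library (symbols mark replicates 1 to 4, black lines the mean of 4 libraries, with none where a library is at 0), with a linear axis from 0 in each panel. Vim, Rax and Gpr50 lie higher in all 4 hypothalamus libraries, Crym, Thra, Thrb and Dio2 lie lower there, and Slco1c1 and Dio3 overlap between the tissues.

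The thyroxine carrier gene Slco1c1 overlapped between the tissues in level. Its hippocampus libraries, replicates 1 to 4, were at 30.6, 32.7, 38.4 and 36.6 FPKM and its hypothalamus libraries at 37.8, 34.9, 39.7 and 33.5 FPKM. The groups overlapped, and the means were 34.6 ± 3.55 FPKM in hippocampus and 36.5 ± 2.78 FPKM in hypothalamus (SD, n = 4 each). The log2 difference was 0.08 ± 0.09 (SE). It was the least variable of the 6 genes measured above 1 FPKM in both tissues, with an SD of log2 level of 0.14 in hippocampus and 0.11 in hypothalamus, where the median gene had 0.26 and 0.20. Both hippocampus libraries rich in choroid plexus genes lay above the other 2, and without them the difference was 0.20 ± 0.07 with no overlap between the tissues. With values as deposited it was 0.31.

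Dio2, whose product makes the active hormone, was lower in hypothalamus, the tissue that holds the tanycytes. Hippocampus replicates stood at 7.20, 12.1, 8.21 and 8.18 FPKM, and hypothalamus replicates at 3.48, 3.29, 4.13 and 4.18 FPKM. Every hippocampus library lay above every hypothalamus library, with means of 8.93 ± 2.18 and 3.77 ± 0.45 FPKM (SD, n = 4 each) and a difference of -1.04 ± 0.16. Replicate 2 was the highest in hippocampus, and without it the difference was -0.90, under the limit of 2-fold. Without hypothalamus replicate 2 it was -0.99. Without hippocampus replicates 3 and 4 it was -1.12 ± 0.35. Against Slco1c1 in the same library, a measure that scaling between libraries does not change, Dio2 was at 0.21 to 0.37 of the carrier's level in hippocampus and at 0.092 to 0.12 of it in hypothalamus, with no overlap. The astrocyte markers, which name the other main cell type of Dio2 in rodents, were called higher for 4 of 11 and lower for 1 of 11, with summed levels of 2889 to 3247 FPKM in hippocampus and 2539 to 3227 FPKM in hypothalamus and none at 0. The shares of all genes compared were 13.3% higher and 13.4% lower. Gjb6, a gap junction gene, was higher in hypothalamus by 1.74 on the log2 scale, Slc1a2, a glutamate transporter gene, differed by -1.57, and S100b overlapped. Their part in the Dio2 values was not tested.

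Dio3, the gene of the inactivating enzyme, was low in both tissues. It stood at 0.800, 0.995, 0.456 and 0.705 FPKM in hippocampus and 0.478, 0.336, 0.332 and 0.316 FPKM in hypothalamus. Hypothalamus replicate 1 lay above hippocampus replicate 3, so that the groups overlapped, and the difference of -0.34 ± 0.10 was under the filter. Per length, transcripts of the activating enzyme exceeded those of the inactivating one in every library. Enzyme amounts were not measured, and Dio3 was under 1 FPKM throughout. The ratio of Dio2 to Dio3 was 8.997, 12.2, 17.997 and 11.6 in hippocampus and 7.29, 9.82, 12.4 and 13.2 in hypothalamus. These ranges overlapped, and the log2 ratio differed by -0.38 ± 0.25 between the tissues. Dio1, the type 1 deiodinase of liver and kidney, was at 0.295 to 0.788 FPKM in hippocampus and at most 0.14 FPKM in hypothalamus.

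Thra, a thyroid hormone receptor gene, was abundant in both tissues and lower in hypothalamus. Its values pool all transcript forms of the gene, so that the level of those encoding a hormone-binding receptor was not measured. Hippocampus libraries were at 285, 179.9, 199.6 and 225 FPKM, and hypothalamus libraries at 89.1, 113, 115 and 118 FPKM. The lowest hippocampus library exceeded the highest hypothalamus library, and the means were 222 ± 45.7 against 109 ± 13.3 FPKM (SD, n = 4 each), a difference of -1.01 ± 0.17. Replicate 1 was the highest in hippocampus and the lowest in hypothalamus, and the difference was -0.79 without both of them. It was -0.88 without the hippocampus one, -0.92 without the hypothalamus one and -0.999 without hippocampus replicate 4, each short of 2-fold. In RefSeq, build GRCr8, the span of Thra overlaps that of Nr1d1 on the other strand by 1061 bases, and that of Med24 by 467 bases. The protocol in the labels does not mention strand, so that fragments of the overlap cannot be told apart.

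Thrb, the second receptor gene, was listed at lower levels than Thra and depended on how loci were summed. In hippocampus 2 loci bore its name, one at 0, 7.21, 3.98 and 8.71 FPKM and the other at 10.9, 9.35, 5.15 and 4.44 FPKM. Their sums were 10.9, 16.6, 9.12 and 13.2 FPKM, against 6.30, 5.79, 4.96 and 4.59 FPKM for the single locus in hypothalamus. The summed libraries did not overlap between the tissues, with a difference of -1.05 ± 0.19, which was -0.91 without hippocampus replicate 2 and -0.98 without hypothalamus replicate 4. Each hippocampus locus alone overlapped with hypothalamus, at differences of 0.51 ± 0.75 for the first and -0.33 ± 0.29 for the second, so that the call of Thrb as lower rests on summing both loci. With transcript forms pooled, Thra exceeded summed Thrb within a library by 10.9 to 26.1 times in hippocampus and 14.1 to 25.7 times in hypothalamus. The log2 ratio differed by 0.15 ± 0.33. This difference was -0.10 without hippocampus replicate 2.

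Crym, the hormone-binding crystallin gene, showed the largest difference toward hippocampus among the 8 genes compared. It was at 269, 199, 320.2 and 280.4 FPKM in hippocampus and at 38.4, 22.6, 26.4 and 16.5 FPKM in hypothalamus. No library of hypothalamus came near those of hippocampus, and the difference was -3.35 ± 0.28, with a range of -3.56 to -3.12 over 17 other settings. Hippocampus replicates 3 and 4 were the highest of their tissue, and without them it was -3.17 ± 0.32. In hypothalamus it was among the more variable genes, with an SD of log2 level of 0.49 that exceeded those of 93.9% of genes. Crym stood at 0.94 to 1.60 times the level of Thra in hippocampus and 0.14 to 0.43 times in hypothalamus, without overlap. Pallial neuron markers moved with it: 11 of 11 were lower in hypothalamus, with summed levels of 3033 to 4778 FPKM in hippocampus and 186 to 317 FPKM in hypothalamus and none at 0 in all libraries of a tissue. Their part in the Crym values was not tested. Within hypothalamus the orders differed, since replicate 1 was the highest for Crym and the lowest for these markers.

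Vim, the vimentin gene, was the most abundant of the 9 genes in hypothalamus. It stood at 26.0, 43.5, 44.1 and 65.9 FPKM in hippocampus and 317, 439, 321 and 280.5 FPKM in hypothalamus. The tissues were widely apart, with means of 44.9 ± 16.3 and 339.6 ± 69.0 FPKM (SD, n = 4 each) and a difference of 2.95 ± 0.30, which ranged from 2.71 to 3.28 over 17 other settings. The upper end is the value without hippocampus replicates 3 and 4, the highest of their tissue. Its SD of log2 level in hippocampus, 0.54, exceeded those of 90.5% of genes there. Vimentin is also made by mural, meningeal and endothelial cells. Mural and meningeal markers were called higher in hypothalamus for 4 of 10, or for 7 with values as deposited or without hypothalamus replicate 1, and lower for none, with a median difference of 1.95 and summed levels of 155 to 511 FPKM in hippocampus and 449 to 1012 FPKM in hypothalamus, and Col1a2 was listed at 0 in all 8 libraries. Myl9, a contractile light chain gene, stood at 14.2 ± 6.05 against 114.7 ± 43.9 FPKM and Aldh1a2, a retinoic acid synthesis gene, was higher by 2.99 on the log2 scale. The most abundant of them, Igf2 and Acta2, overlapped, at differences of 2.96 ± 1.07 and -0.14 ± 0.60. Igf2 was at 5.92 and 10.3 FPKM in hippocampus replicates 1 and 2 and at 81.2 and 79.8 FPKM in replicates 3 and 4. In hypothalamus it was at 74.4 to 356 FPKM, so that its overlap came through hippocampus replicates 3 and 4. Endothelial markers were called higher for 1 of 10 and lower for 3, with summed levels of 262 to 347 FPKM in hippocampus and 169.5 to 242 FPKM in hypothalamus and none at 0. Beside both lists, 13.3% of all genes compared were called higher and 13.4% lower. Cdh5, a cadherin gene of endothelial junctions, was higher by 1.15, while Esam and Cldn5, also of these junctions, were at differences of -1.40 and -1.15. Slc2a1, the glucose transporter gene, overlapped. Mural and meningeal markers had the same order of libraries as Vim in hippocampus, with sums of 155, 252, 363 and 511 FPKM in replicates 1 to 4. In hypothalamus the orders differed, since replicate 1 was the lowest for these markers, at 449 FPKM, and replicate 4 for Vim. The part of these cell types in the Vim values was not tested.

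Rax and Gpr50, the genes most restricted to tanycytes in this group, were at a few FPKM in every hypothalamus library. Rax was at 4.09, 4.12, 4.18 and 2.95 FPKM in hypothalamus, and in hippocampus was listed at 0 in replicates 1 to 3 and at 0.25 FPKM in replicate 4. Gpr50 was at 4.72, 3.86, 4.54 and 4.01 FPKM in hypothalamus and listed at 0 in hippocampus apart from 0.021 FPKM in replicate 3. All hypothalamus libraries lay above all hippocampus libraries for both genes, with log2 differences of 2.18 ± 0.12 for Rax and 2.39 ± 0.06 for Gpr50. These sizes rest on the pseudocount, since with 0.1 in its place they were 4.84 and 5.38. Hypothalamus replicate 4, the lowest for Rax, was also the lowest for Cga, Tshb, Tbx19 and Mtnr1a but the highest for Lhb, whereas Gpr50 was lowest in replicate 2. Vim exceeded Rax by 76.9 to 107 times in the hypothalamus libraries.

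**Figure D2:**
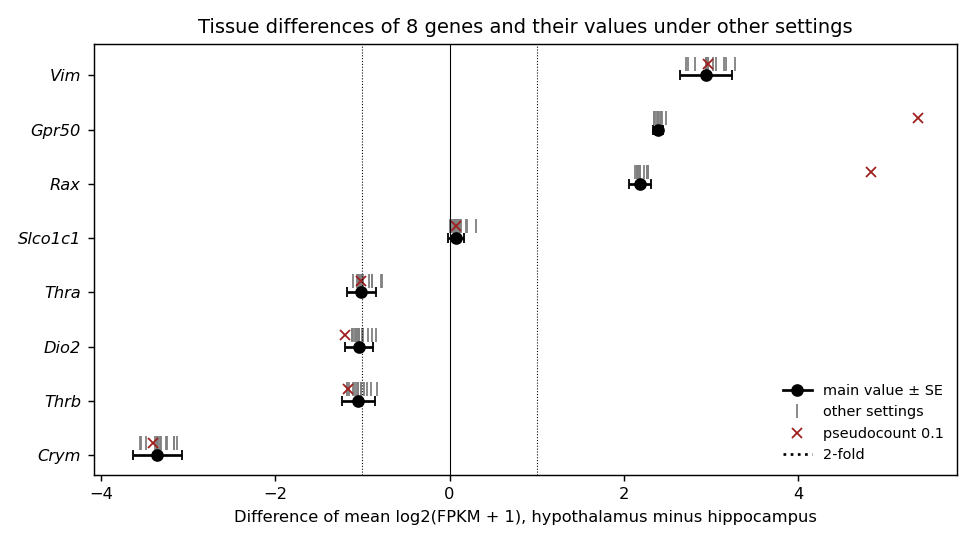
Difference of mean log2(FPKM + 1), hypothalamus minus hippocampus, for the 8 genes compared, as black points with SE and, above each, as grey ticks under other settings of scaling, filter, loci and libraries and as a red cross with a pseudocount of 0.1. The single Thrb loci are not drawn. Vim, Gpr50, Rax and Crym stay beyond the dotted lines of 2-fold under every setting, and Thra, Dio2 and Thrb straddle the line at -1.

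Ordered by level, Crym and Thra led in hippocampus and overlapped with each other, followed by Vim and Slco1c1, which also overlapped, then Thrb and Dio2, whose ranges met, and then Dio3 with Rax and Gpr50 at the end. In hypothalamus Vim stood first and Thra second with no overlap, followed by Slco1c1 and Crym, at 36.5 ± 2.78 and 26.0 ± 9.22 FPKM, which overlapped. Thrb, Gpr50, Rax and Dio2 lay close together at means of 5.41, 4.28, 3.83 and 3.77 FPKM, each overlapping with its neighbour, and Dio3 was last. Among all symbols of its table, Crym was at percentile 98.6 of mean level in hippocampus and 81.7 in hypothalamus, and Vim at 88.2 and 99.0. Dio2 was at percentile 60.0 in hippocampus and 45.9 in hypothalamus.

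Other genes of the thyroid hormone pathway were called about as often as genes at large. Over 4 lists together, 6 genes out of the 47 compared had higher hypothalamus levels and 7 had lower ones, with a median difference of -0.04, the same to 2 decimals as that of all genes. The share called in either direction was 27.7%, near the 26.7% of all genes compared. For transport and activation, 1 of 9 was higher and 1 lower, with a median of -0.00. Slc3a2, the heavy chain of amino acid carriers that also move thyroid hormones, overlapped between the tissues, at 116 ± 13.4 and 134 ± 9.59 FPKM. Sult1a1, a sulfotransferase, was higher in hypothalamus at 32.6 ± 8.005 against 10.8 ± 5.87 FPKM, a difference of 1.61 ± 0.39. Slco1a5, an organic anion carrier, was called lower, but stood at 0.077 and 0.26 FPKM in hippocampus replicates 1 and 2 against 8.84 and 4.22 FPKM in replicates 3 and 4, the libraries rich in choroid plexus genes, and it was not called without these 2 libraries.

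Ttr, encoding transthyretin, the thyroxine carrier of cerebrospinal fluid that the choroid plexus secretes, showed that split most plainly. Its level was 38.9 and 37.6 FPKM in hippocampus replicates 1 and 2 and 6656 and 5004 FPKM in replicates 3 and 4. Hypothalamus libraries were at 9.94, 77.1, 9.38 and 15.5 FPKM, with replicate 2 above hippocampus replicates 1 and 2, so that the tissues overlapped. Crym, Vim and Slco1c1 were likewise higher in replicates 3 and 4 than in replicates 1 and 2 of hippocampus, by far less. Dio2, Dio3, Thra and Thrb did not split this way. The calls of all 7 called genes were the same without replicates 3 and 4, and the part of choroid plexus RNA in them was not otherwise tested. Kcnj13, a potassium channel gene and the next most abundant of that list, overlapped between the tissues.

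Receptor partners and coregulators were called for 1 of 13 in each direction, with a median difference of -0.14. The shares of all genes compared were 13.3% higher and 13.4% lower. Rxrg, a retinoid X receptor that pairs with the thyroid hormone receptors, was at 5.04, 5.50, 5.83 and 10.8 FPKM in hippocampus and 16.5, 18.3, 15.8 and 20.9 FPKM in hypothalamus, a difference of 1.32 ± 0.24. Nrip1, a nuclear receptor corepressor, was lower in hypothalamus at 2.26 ± 0.34 against 7.15 ± 3.21 FPKM. Among the other partners, Rxra was at 8.65 ± 1.43 FPKM in hippocampus and 14.4 ± 2.03 FPKM in hypothalamus, and Rxrb at 30.0 ± 3.97 and 16.5 ± 3.53 FPKM. Both separated the tissues in opposite directions without reaching 2-fold. The most abundant members, the deacetylase gene Hdac3 and Thrap3, did not reach it either, at differences of -0.47 ± 0.11 and 0.63 ± 0.14.

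Genes known to respond to thyroid hormone in brain were called lower in hypothalamus for 5 of 17 and higher for 1, with a median of -0.27. Beside these counts, 13.4% of all genes compared were called lower and 13.3% higher. Klf9, a transcription factor gene induced by triiodothyronine, was at 114, 152, 101 and 95.5 FPKM in hippocampus and 48.2, 51.7, 51.5 and 55.2 FPKM in hypothalamus, a difference of -1.12 ± 0.15 with a wide gap between the groups. Hr, encoding the corepressor hairless and another induced gene, overlapped at 5.82 ± 0.90 and 6.97 ± 1.75 FPKM. Sema7a, a semaphorin gene, was lower at 15.5 ± 3.36 against 132 ± 25.4 FPKM, as was Camk4, a calcium-dependent kinase gene, at 4.05 ± 0.14 against 16.6 ± 2.39 FPKM. Nrgn, the neurogranin gene of pallial neurons, and Thrsp were lower by 1.90 and 1.22 on the log2 scale. Agt, encoding angiotensinogen, was higher at 895 ± 37.6 against 66.1 ± 8.13 FPKM. Mbp, encoding myelin basic protein, was the most abundant gene of the list, and its 0.87 ± 0.21 did not reach 2-fold. Nrgn is also on the list of pallial neuron markers, which were all lower. With values as deposited, 3 genes of the list were lower and 2 higher.

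**Figure D3:**
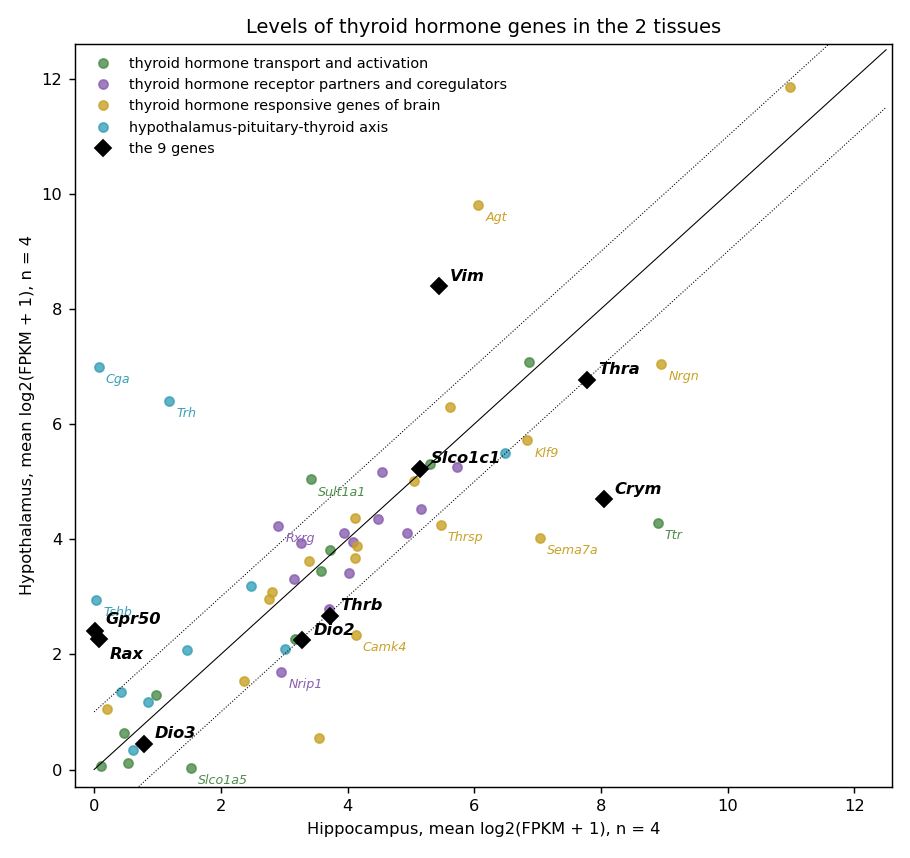
Mean log2(FPKM + 1) of 4 libraries in hippocampus (horizontal) and hypothalamus (vertical) for genes of the 4 thyroid hormone lists (coloured points) and the 9 genes (black diamonds), with a solid line of equal levels and dotted lines of 2-fold. Slco1c1 lies on the line of equal levels, Crym and Vim lie far to either side, and Thra, Thrb and Dio2 lie at the lower dotted line.

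Genes of the hypothalamus-pituitary-thyroid axis were higher in hypothalamus for 3 of 8 and lower for none, with a median difference of 0.66. Among all genes compared, 13.3% were called higher and 13.4% lower. Cga and Tshb passed the filter through their hypothalamus values alone, so that their calls are no support for a pattern. Trh, encoding thyrotropin-releasing hormone, was even across hypothalamus libraries, at 86.3, 88.0, 78.5 and 81.1 FPKM, against 0.94 to 1.91 FPKM in hippocampus. Cga and Tshb, the subunit genes of thyrotropin, varied widely instead. Cga was at 294, 279, 163 and 18.2 FPKM in hypothalamus and at most 0.15 FPKM in hippocampus. Tshb was at 5.52, 14.1, 11.6 and 1.83 FPKM in hypothalamus and listed at 0 in 3 hippocampus libraries and at 0.078 FPKM in the other. Pou1f1, a pituitary transcription factor gene, was at 19.3 ± 5.78 FPKM in hypothalamus. Replicate 4 was the lowest of its tissue for Cga and Tshb, and Rax was lowest there as well, at 2.95 FPKM. Trhde, encoding the peptidase that degrades thyrotropin-releasing hormone and that rodent tanycytes express, was at 3.35 ± 0.97 FPKM in hypothalamus against 7.25 ± 2.16 FPKM in hippocampus, a difference of -0.91 ± 0.24 that separated the tissues without reaching 2-fold. Pcsk2, a prohormone convertase gene, was at 88.9 ± 13.0 FPKM in hippocampus and 44.2 ± 4.10 FPKM in hypothalamus, and its -0.99 ± 0.12 fell just short. Under 8 of 17 other settings, 1 or 2 genes of the list were called lower.

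Other tanycyte genes moved in either direction: hypothalamus had the higher level for 5 of 17 and the lower for 3, and the median difference was 0.53. Beside these counts, 13.3% of all genes compared were called higher and 13.4% lower. Nes and Adm of this list passed the filter through their hypothalamus values alone. With values as deposited 1 was lower, and with genes required to average 5 FPKM 2 were higher. Hes5, a Notch target gene, was at 26.9 ± 5.20 FPKM in hypothalamus against 4.18 ± 2.06 FPKM in hippocampus. Nes, encoding the intermediate filament nestin, was at 2.24 ± 0.30 against 0.34 ± 0.09 FPKM, and Scn7a, Adm and Mest were higher by 1.60, 1.14 and 1.11 on the log2 scale. Lhx2, a LIM homeobox gene that tanycytes need and that pallial cells also express, was lower in hypothalamus, at 7.69 ± 1.42 against 51.7 ± 12.57 FPKM, and Ptn and Fgfr1 were lower by 1.14 and 1.06. The most abundant members were Nnat, which overlapped between the tissues, and Gpr37l1, at 205 ± 20.5 against 124 ± 15.2 FPKM, a difference of 0.72 ± 0.11. The summed level of the 18 genes in both tables was 1558 FPKM in hypothalamus replicate 1 and 2962 to 2995 FPKM in the other 3, with Nnat at 904 FPKM in that library and 2270.05 to 2287 FPKM in the others. None of the list was at 0 in all libraries of a tissue.

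Ciliated ependymal genes, of the cells that line the rest of the ventricles, were higher in hypothalamus for 4 of 10 and lower for 1. The shares of all genes compared were 13.3% and 13.4%. Rsph1 and Ccdc153 were higher by 1.59 and 1.46 on the log2 scale, while Foxj1, the master gene of motile cilia, was lower at 20.4 ± 5.67 against 54.9 ± 2.76 FPKM. Their summed level overlapped between the tissues, at 116 to 181 FPKM in hippocampus and 137 to 181 FPKM in hypothalamus, and none was at 0. Rarres2, the chemerin gene, overlapped as well.

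**Figure D4:**
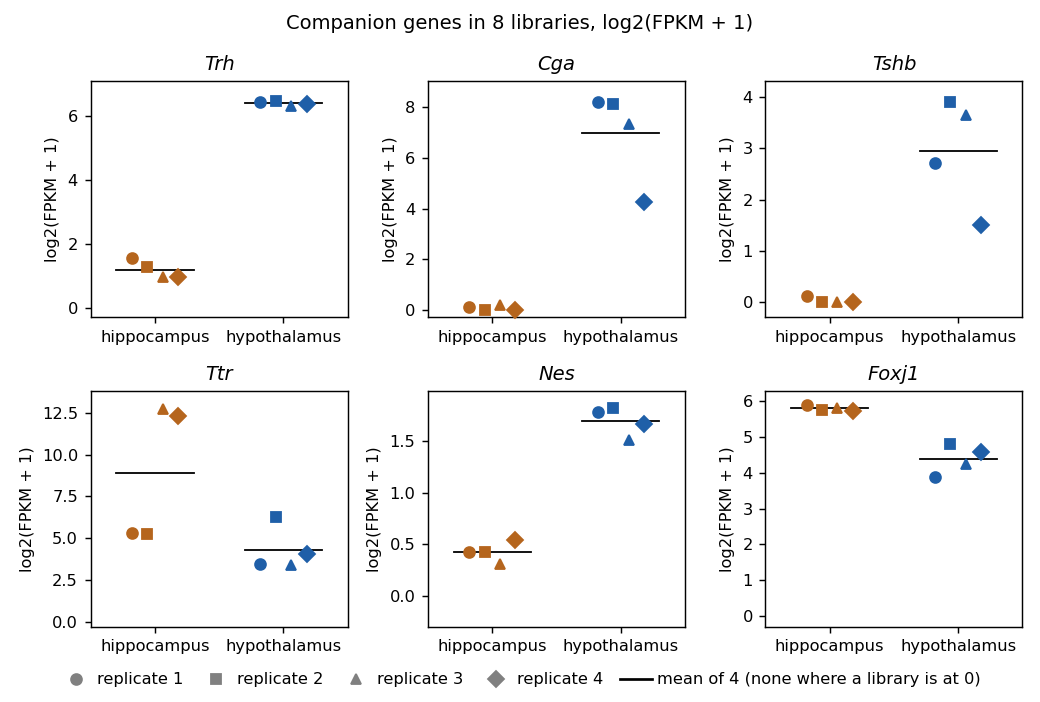
Log2(FPKM + 1) of 6 genes that accompany the 9 (symbols mark replicates, black lines the mean of 4 libraries, with none where a library is at 0). Trh and Nes are even within hypothalamus, Cga and Tshb drop in hypothalamus replicate 4, Ttr is high in hippocampus replicates 3 and 4, and Foxj1 is lower in hypothalamus.

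For each called gene, up to 3 genes with the most similar profile over the 8 libraries are given, taken by the root mean square difference of log2(FPKM + 1), after each profile had been centred on its mean. This measure is led by the tissue difference and is a description. For Vim these were Col3a1, Slc6a13 and Serping1, at 0.23, 0.28 and 0.29 log2 units. Col3a1, a fibrillar collagen gene, was at 19.1 ± 3.69 FPKM in hypothalamus and 2.48 ± 1.35 FPKM in hippocampus. Those reported for Gpr50 were Ubxn6 and LOC691995 at 0.076 and 0.11. Gstk1, S100g and Hint1 were the closest to Rax, at 0.12 to 0.14. Those closest to Crym were Rab12, Tm7sf2 and Nell2 at 0.24 to 0.31, and those closest to Thra were Vps52, Spry2 and Dpf1 at 0.078 to 0.088. Dio2 had Kif1b, Ccdc115 and Vopp1 at 0.099 to 0.11, and Thrb had Slit2, Pde4d and Bdp1 at 0.11 to 0.13. Among the genes themselves, the closest pair on this scale was Rax and Gpr50 at 0.18, followed by Dio2 and Thrb at 0.23. Vim lay 0.48 from both Rax and Gpr50. Rax and Gpr50 were each listed at 0 in 3 hippocampus libraries and passed the filter through hypothalamus alone. Their distances therefore rest on the pseudocount and are no support for a likeness.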

How the data were processed

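RNA was selected by poly-A tails, sequenced on an Illumina HiSeq instrument and demultiplexed with CASAVA 1.8.2, per the labels' protocols. Each tissue has a table of FPKM that the authors deposited. Cufflinks and Cuffdiff, Bowtie and Bowtie2, TopHat and TopHat2 and build rn5 are named in the submitters' processing notes, with versions not given in the sources used here. No value of the 9 genes carried a FAIL or HIDATA status. FPKM were summed over loci of a symbol and divided by a median-of-ratios factor over 15892 shared symbols (0.889 to 0.947 for hippocampus, 1.07 to 1.11 for hypothalamus), with Python 3.11.15, NumPy and pandas. Such factors remove one scale per library and no difference in how loci were built. The comparison took genes whose 8 libraries averaged 1 FPKM or more, on log2(FPKM + 1); a pseudocount of 0.1 was used in log2 ratios and none in linear ratios. Correlations between libraries of a tissue, across genes, were 0.932 to 0.976 for hippocampus and 0.954 to 0.990 for hypothalamus. The 9 genes and the 13 lists were chosen with earlier results of these data known. Named are the 9 genes, from each list the 2 called genes with the largest differences and the 2 most abundant, in thyroid hormone lists any gene behind a count of 5 or fewer, and the 3 closest profiles, of which 1 is not reported here. Dio1, Rxra, Rxrb, Hr, Trhde, Nes, Scn7a, Adm, Mest, Ptn, Fgfr1, Lhb, Tbx19, Mtnr1a, Nr1d1, Med24 and the genes of every cell were chosen after their values were seen. The calculation was tested on simulated tables with the same genes in both tissues, which cannot test differences in how loci were built. Alternatives covered scaling, pseudocount, filter, loci, single libraries and pairing by replicate number.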

Additional observations from a re-analysis of the deposited data

Results flagged for a closer look

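In 10 of 44 groups of 4 libraries tested, a single library lay apart from the other 3 by more than Dixon's limit for such a group; chance flags about 1 in 20 groups. Hypothalamus replicate 1 was high for Dio3 at 0.478 FPKM and low for Thra at 89.1 FPKM. It was also low for the summed receptor partners and coregulators at 197 FPKM, for other tanycyte genes at 1558 FPKM and for pallial neuron markers at 186 FPKM. Hypothalamus replicate 4 was low for Rax at 2.95 FPKM, and hypothalamus replicate 2 was high for choroid plexus genes at 133 FPKM. Hippocampus replicate 4 was low for the summed thyroid hormone responsive genes at 2799 FPKM. The hippocampus values of Rax in replicate 4, 0.246 FPKM, and of Gpr50 in replicate 3, 0.0210 FPKM, stood apart because the other 3 libraries were listed at 0.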

How the results depend on the processing

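Of 9 genes, 1 was called lower with values as deposited and 1 with upper-quartile scaling, in place of 4, and 1 was called higher when genes had to average 5 FPKM, in place of 3, since Rax and Gpr50 are then not compared. Leaving out libraries gave 2 to 4 called lower, and 3 called higher each time. The log2 ratio of Thra to Thrb, hypothalamus minus hippocampus, ranged from -0.10 to 0.32 when 1 library was left out, so that its sign is not settled. That of Vim to Rax was -4.43 with a pseudocount of 0.01 and 0.76 with 1, since Rax is listed at 0 in 3 hippocampus libraries. Thrb changed sign to 0.51 with the first hippocampus locus alone. This setting, and leaving out hippocampus replicates 3 and 4 together, were chosen after seeing the data. Thyroid axis genes called lower numbered 0, and 1 or 2 under 8 of 17 settings; mural and meningeal markers called higher numbered 4, and 7 with values as deposited, without hypothalamus replicate 1 or without replicate 1 of both tissues. Choroid plexus genes numbered 2 higher without hippocampus replicates 3 and 4. Other tanycyte genes called lower numbered 1 with values as deposited and those called higher 2 with the filter at 5 FPKM, against 3 and 5. Pallial markers called lower numbered 7 with 1 locus in each table, which leaves fewer genes compared. Among single genes and lists, 538 values under other settings moved by less than the spread between libraries or, for counts, stayed within 1.5 times, and 39 moved further. With the replicate block, differences being taken within each replicate number, 1436 genes were higher and 1431 lower, against 1406 and 1414, and 3 of the 9 genes were higher and 4 lower, as without it. Correlations of same-numbered deviations across genes were -0.079, -0.058, 0.078 and 0.14, within the -0.20 to 0.20 of different-numbered ones. These values cannot show whether the numbers pair the libraries, which stays unknown. Absolute depth is unknown, so that values of 0 have no upper limit.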
